A study of Mus musculus with 7 samples.

Results

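The genes described here encode 10 nuclear receptors that control bile acid, sterol, lipid, hormone and foreign-compound metabolism in liver: Nr1h4, Nr1h3, Nr1i2, Nr1i3, Nr0b2, Nr5a2, Ppara, Rxra, Esr1 and Thrb. They were taken by name from 22378 genes with protein-coding transcripts. For each gene, the deposited hotspots (stretches of the genome with more nuclease-cut ends than their surroundings) were taken where they overlapped the gene body or 20 kb on either side, called the window below. The 10 windows held 152 of 60910 Benzonase hotspots, 148 of 57675 Cyanase hotspots and 160 of 72286 DNase I hotspots.

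The study mapped open chromatin in liver of male C57BL/6 mice, aged 8 weeks, with 3 nucleases. Benzonase and Cyanase, endonucleases, were each used at 0.25, 1 and 4 U on frozen, pulverized liver. DNase I was used on nuclei isolated from fresh liver. Tissue state, isolation of nuclei and nuclease therefore changed together and cannot be told apart. By the labels, Benzonase and Cyanase had 3 samples each and DNase I had 1, while the header of the DNase I list names 2 pooled libraries. Each nuclease had 1 pooled list that gave positions without read counts, so there were no replicates and no test was made. The depth behind each hotspot is not in the lists and is not used here.

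Nuclear receptors are transcription factors, many of which are switched by small lipophilic ligands such as bile acids, oxysterols, fatty acids, hormones or drugs. Many bind paired copies of a short hexamer, often as heterodimers with a retinoid X receptor. In hepatocytes they link the supply of nutrients, bile acids and foreign compounds to the genes that make, move or break down these compounds.

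The liver label was checked against marker genes by asking whether a TSS (transcription start site of a protein-coding transcript) lay in a hotspot. Of all genes with protein-coding transcripts, 57.4% had a TSS in a Benzonase hotspot, 55.7% in a Cyanase hotspot and 47.4% in a DNase I hotspot. Of 6 hepatocyte markers (Alb, Ttr, Apoa1, Hnf4a, Cps1 and Tat), 6 had a TSS in a hotspot of all 3 nucleases. The share over all genes was 46.0%. Of 14 markers of blood, endothelial, bile duct and stellate cells, 1 (Sox9) had a TSS in a hotspot of all 3, against the same 46.0%. Cd3e, Pecam1, Stab2, Epcam and Col1a1 had no TSS in a hotspot of any list. The myeloid and leukocyte markers Cd68 and Ptprc had a TSS in a DNase I hotspot alone. Clec4f was in Cyanase and DNase I hotspots, Cdh5 and Lrat in Benzonase and Cyanase hotspots, Krt19 in a Benzonase hotspot and Des in a Cyanase hotspot. Of 4 markers of other tissues, 3 (Myod1, Neurod1 and Olig2) were in no hotspot and Gfap was in a Cyanase hotspot. The part of other liver cells in the hotspots of the receptor genes was not tested.

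Promoter stretches of 150 bases are shown for 5 receptors because their start sites differed in base composition and in the bounds of the hotspots. All sequences are from mm9, written 5′ to 3′ along the gene, and end just before the main TSS, except for Esr1, where the stretch ends before the most upstream annotated start. The main TSS of a gene is the one found by the most nucleases and, among equals, the most upstream. Capitals mark matches on either strand to GGGCGG (Sp1) or AGGTCA (the hexamer of nuclear receptors). None of the stretches overlaps an annotated exon. They lie at chr15:85565844-85565993 (+) for Ppara, chr14:18493324-18493473 (+) for Thrb, chr4:133109141-133109290 (+) for Nr0b2, chr1:138857005-138857154 (-) for Nr5a2 and chr10:5734949-5735098 (-) for Esr1.
Ppara: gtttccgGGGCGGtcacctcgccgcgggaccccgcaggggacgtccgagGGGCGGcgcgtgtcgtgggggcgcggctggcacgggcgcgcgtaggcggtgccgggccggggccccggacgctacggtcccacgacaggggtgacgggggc
Thrb: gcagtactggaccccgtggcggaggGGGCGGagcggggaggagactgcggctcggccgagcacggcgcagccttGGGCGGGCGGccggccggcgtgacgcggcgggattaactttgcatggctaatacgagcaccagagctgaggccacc
Nr0b2: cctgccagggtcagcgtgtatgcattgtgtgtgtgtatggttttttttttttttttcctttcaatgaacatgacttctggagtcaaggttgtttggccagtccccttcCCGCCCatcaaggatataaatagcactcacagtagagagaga
Nr5a2: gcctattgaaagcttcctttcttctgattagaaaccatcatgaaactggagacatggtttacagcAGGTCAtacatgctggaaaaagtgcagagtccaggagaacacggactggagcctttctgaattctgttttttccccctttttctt
Esr1: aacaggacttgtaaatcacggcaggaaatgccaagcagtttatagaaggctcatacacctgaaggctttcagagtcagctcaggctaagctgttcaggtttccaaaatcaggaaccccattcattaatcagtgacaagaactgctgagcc

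The GC content of these stretches was 81.3% for Ppara and 72.0% for Thrb. It was 44.0% for Nr0b2, 42.7% for Nr5a2 and 45.3% for Esr1. The Ppara stretch held 26 CpG dinucleotides and the Thrb stretch 18. The Nr5a2 and Esr1 stretches each held 1, so start sites of CpG-rich and CpG-poor kinds both occurred among the receptors.

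A TSS lay in a Benzonase hotspot for 10 of 10 receptor genes, against 57.4% of all genes with protein-coding transcripts. The count was 10 of 10 for Cyanase, against 55.7%, and 9 of 10 for DNase I, against 47.4%. All 3 nucleases covered a TSS in 9 of 10 receptor genes, against 46.0% of all genes. The exception was Esr1, where the DNase I hotspot ended 126 bp upstream of the main TSS.

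Hotspots were dense in most windows. The median over all genes was 3.83 Benzonase, 3.60 Cyanase and 4.24 DNase I hotspots per 100 kb of window. The median over the receptor genes was 13.5 for Benzonase, 13.4 for Cyanase and 13.4 for DNase I. For Benzonase and Cyanase 9 of 10 receptor genes lay above the median of all genes, Esr1 being below it, and for DNase I 10 of 10 did. Nr1i3 had the highest density in each list and Esr1 the lowest.

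**Figure D1:**
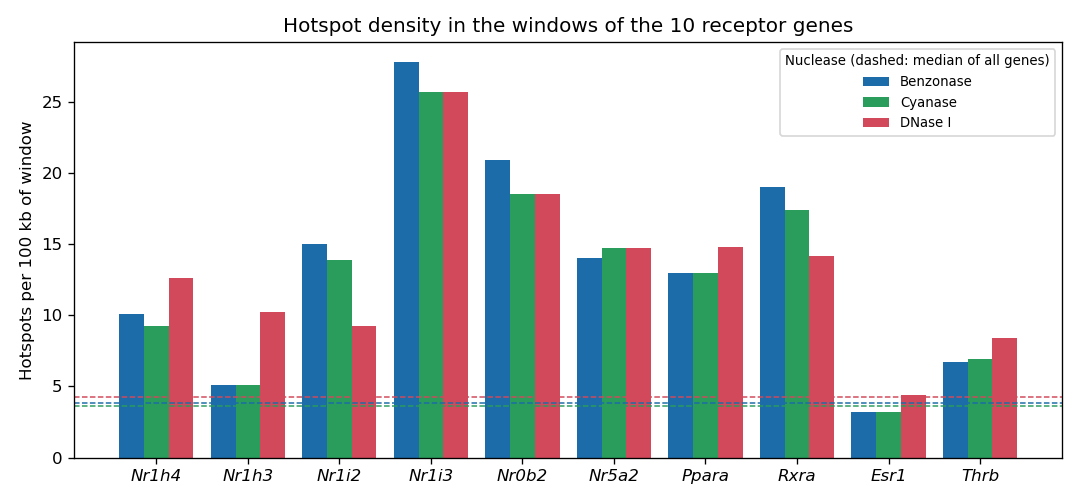
Hotspots per 100 kb of window (vertical axis) for each receptor gene and nuclease (bars), with the median over all genes as a dashed line. Densities run from 3.23 at Esr1 to 27.8 at Nr1i3 for Benzonase, and DNase I is the lowest of the 3 at Nr1i2 and Rxra.

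Hotspots of the 3 lists that overlapped by at least 1 bp were joined into regions, which gave 190 regions in the windows and 94491 in the genome. A region was common where DNase I and at least 1 other nuclease found it. It was Benzonase-Cyanase unique or DNase I unique where 1 side alone did. Of the 190 regions, 120 were common (63.2%, 95% Wilson interval 56.1 to 69.7, counting error only), against 45.4% of all regions. Benzonase-Cyanase unique regions numbered 34 (17.9%, interval 13.1 to 24.0), against 26.3%, and DNase I unique regions 36 (18.9%, interval 14.0 to 25.1), against 28.3%.

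Of the common regions in the windows, 115 were found by all 3 nucleases, which is 60.5% of the 190 regions, against 40.0% in the genome. Benzonase and Cyanase without DNase I found 19 regions (10%, genome 10.2%), Benzonase alone 10 (5.26%, genome 9.31%) and Cyanase alone 5 (2.63%, genome 6.80%). Regions that held a TSS of a receptor gene numbered 11, and 11 of them were common. The genome shares above cover regions at every location, and no share for regions over a TSS is given here. Inside the gene bodies, away from the start sites and the 2 kb upstream of them, lay 134 regions, of which 78 were common, 29 Benzonase-Cyanase unique and 27 DNase I unique. A share over the gene bodies of all genes is not given either. The counts at the start sites and in the gene bodies are therefore not read as particular to the receptor genes. Some signal belonged to other genes: 9 of the 190 regions held the TSS of a neighbouring gene. There were 12 such neighbours in 5 windows, and 9 of them had a TSS in a hotspot of all 3 lists, against 46.0% of all genes.

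**Figure D2:**
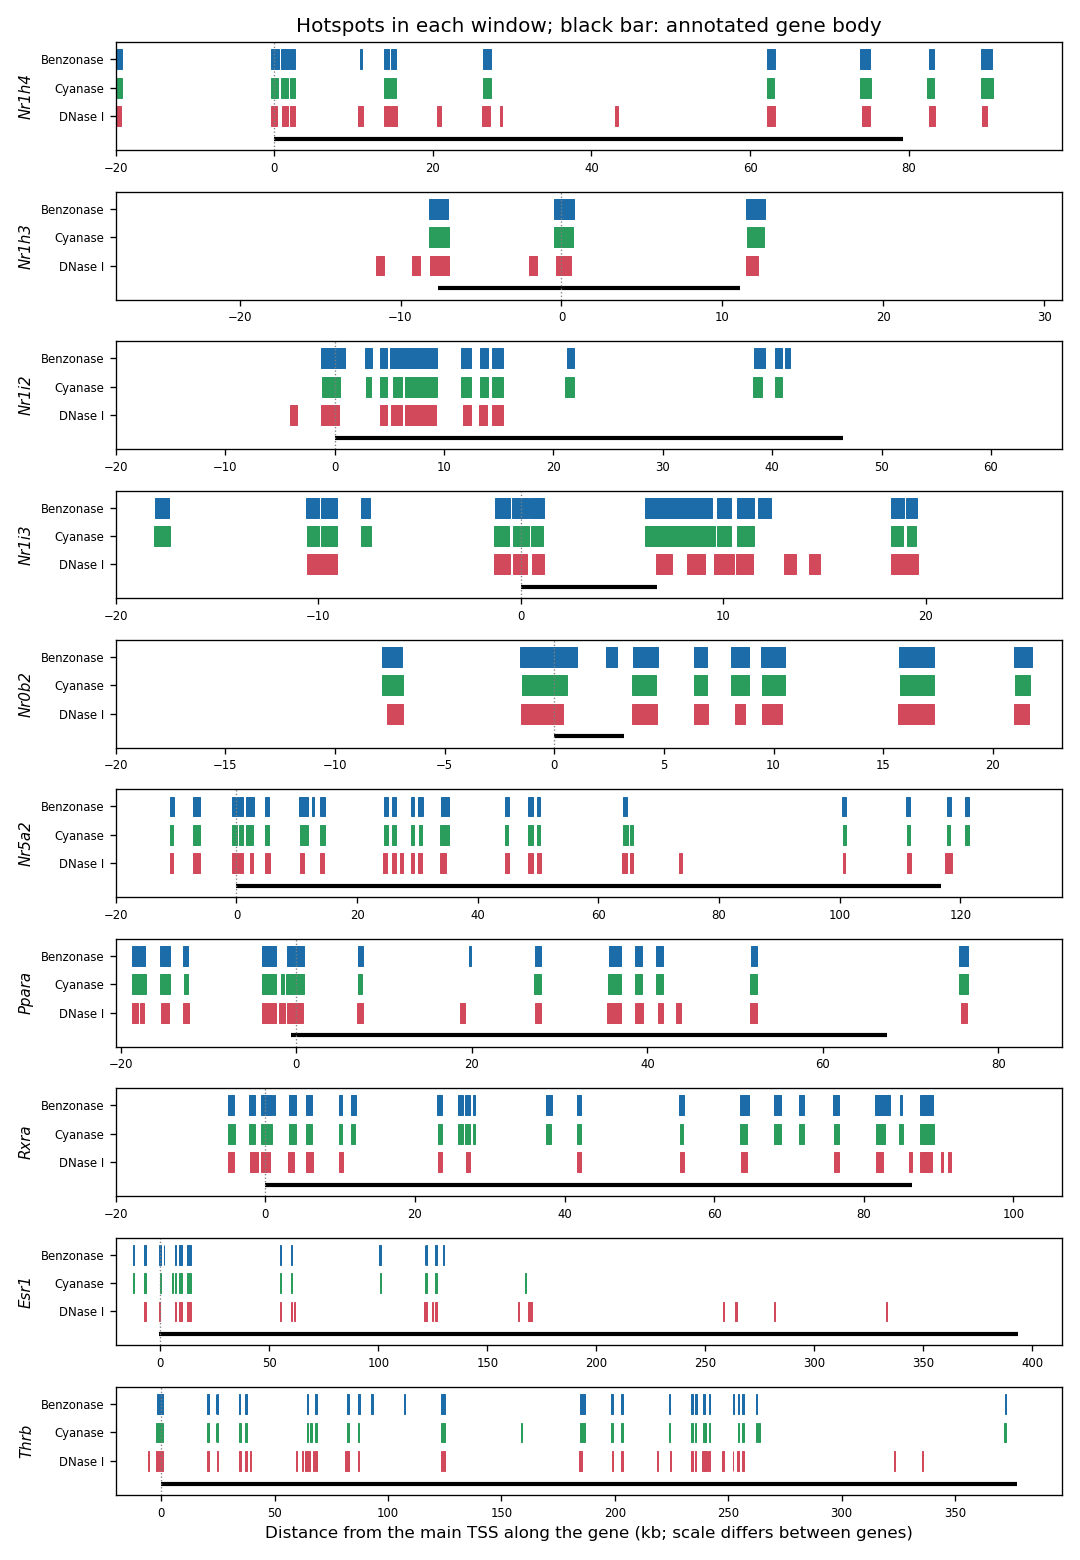
Hotspots of the 3 nucleases (rows of blocks) in the window of each receptor gene by distance from the main TSS in kb, with the gene body as a black bar. Blocks of the 3 rows line up at most positions, while the far introns of Esr1 hold blocks in the DNase I row alone.

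Nr1h4 encodes FXR, the bile acid receptor, and its gene spans 79.4 kb on the minus strand (chr10:88916979-88996330). Its window held 12 Benzonase, 11 Cyanase and 15 DNase I hotspots in 15 regions. None of these regions was Benzonase-Cyanase unique, 12 were common and 3 DNase I unique. Annotated start sites of Nr1h4 lay in 2 separate regions, both found by all 3 nucleases.
At the main TSS the Benzonase hotspot was 1045 bp wide, the Cyanase hotspot 885 bp and the DNase I hotspot 703 bp. At the downstream start sites, 26.8 kb into the gene, the widths were 947, 939 and 963 bp in the same order. The order of widths at the main TSS was thus not seen at the internal start sites. One common region, found by Benzonase and DNase I at 10.9 kb, had a GC content of 32.5%, the lowest of all common regions in the windows. The region farthest into the downstream flank, at 89.9 kb, held the TSS of the neighbour Gas2l3.

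Nr0b2 encodes SHP, a receptor without a DNA-binding domain that represses other receptors and takes part in feedback on bile acid synthesis. The gene is 3.16 kb long and lies at chr4:133109291-133112451 on the plus strand. Its window held 9 Benzonase, 8 Cyanase and 8 DNase I hotspots in 9 regions, and 8 were common. The remaining one was a Benzonase hotspot of 506 bp over an exon, 2.60 kb from the TSS.
The hotspots over the TSS were 2573 bp wide for Benzonase, 2062 bp for Cyanase and 1896 bp for DNase I. Upstream of the TSS they reached 1541, 1492 and 1518 bp, and downstream 1031, 569 and 377 bp. The 3 bounds therefore lay close together on the upstream side and apart on the side of the gene. Of the flanking regions, 1 held the TSS of Nudc and 1 that of Gpatch3. Hotspots of Benzonase and DNase I shared 78.2% of the bases covered by either, the highest value among the receptor genes.

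Nr5a2 encodes LRH-1, which acts with other receptors on genes of bile acid and cholesterol metabolism. The gene spans 117 kb on the minus strand (chr1:138740161-138857004), and 22 Benzonase, 23 Cyanase and 23 DNase I hotspots fell into 25 regions. Common regions made up 21 of these, 2 were Benzonase-Cyanase unique and 2 DNase I unique. The main TSS lay in a region with a GC content of 39.8%.
There the DNase I hotspot was the widest at 1024 bp, with 888 bp for Benzonase and 895 bp for Cyanase. This was the reverse of the order at Nr0b2 and at the main TSS of Nr1h4. A further annotated start of a protein-coding transcript, at chr1:138850207, was in no hotspot. The nearest hotspots lay 1390 bp from it for Benzonase, 1428 bp for Cyanase and 1260 bp for DNase I. The most GC-rich region of the window, 11.2 kb into the gene, had a GC content of 59.9% and overlapped an exon.

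Nr1h3 encodes LXR alpha, the oxysterol receptor. Its window (gene at chr2:91024218-91042991, minus strand) held 3 Benzonase and 3 Cyanase hotspots but 6 DNase I hotspots. All 3 Benzonase hotspots lay in common regions, as did the 3 of Cyanase, and the other 3 DNase I hotspots were alone. One common region covered the main TSS and had a GC content of 57.3%. The remaining common regions covered the start sites of the neighbours Madd and Acp2. The region at Acp2 also held the most upstream annotated start of Nr1h3, at chr2:91042991, in hotspots of all 3 nucleases; it belongs to a transcript not annotated as protein-coding.
The 3 DNase I unique regions lay upstream of the main TSS, at -1.75, -9.05 and -11.3 kb. Their GC contents were 52.5%, 49.8% and 52.1%, above the 45.8% of the window. Benzonase and Cyanase hotspots shared 95.9% of the bases covered by either, while Benzonase and DNase I shared 55.1%.

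Nr1i2 and Nr1i3 encode PXR and CAR, receptors that respond to drugs and other foreign compounds and control cytochrome P450 genes. The Nr1i2 window (gene at chr16:38248409-38294910, minus strand) held 13 Benzonase, 12 Cyanase and 8 DNase I hotspots. Of 13 regions, 7 were common, 5 Benzonase-Cyanase unique and 1 DNase I unique. The common regions other than the TSS region lay in introns between 4.47 and 14.9 kb from the TSS, among them a region of 3212 bp with 2 Benzonase, 2 Cyanase and 1 DNase I hotspots. From 21.5 kb onward, 4 regions were found and none of them held a DNase I hotspot.
Over the TSS, the hotspot was 2213 bp wide for Benzonase, 1708 bp for Cyanase and 1617 bp for DNase I. Downstream of the TSS the hotspots reached 942, 510 and 403 bp. The DNase I unique region lay upstream, at -3.77 kb. Nr1i2 and Rxra were the receptor genes with the fewest DNase I hotspots relative to the other lists.

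The Nr1i3 gene is 6.73 kb long (chr1:173144101-173150832, plus strand) and its window held 13 Benzonase, 12 Cyanase and 12 DNase I hotspots. These made 13 regions, 8 common, 3 Benzonase-Cyanase unique and 2 DNase I unique. Hotspots covered 24.8% of the window for Benzonase, 23.0% for Cyanase and 20.4% for DNase I, in each list the highest value among the receptor genes. The window also holds start sites of other genes.
Among these neighbours, Tomm40l and Apoa2 had a TSS in hotspots of all 3 nucleases, Pcp4l1 in those of Benzonase and Cyanase, and Fcer1g in none. The widest region of all windows, 4404 bp, ran from the end of Nr1i3 over the TSS of Tomm40l and held 2 Benzonase, 2 Cyanase and 3 DNase I hotspots. At the TSS of Nr1i3 the hotspots were 838 bp wide for Benzonase, 816 bp for Cyanase and 699 bp for DNase I. Hotspots in this window thus belong in part to the promoters of other genes.

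Ppara encodes the fatty acid receptor PPAR alpha, which induces genes of fatty acid oxidation. Its window (gene at chr15:85565413-85633249, plus strand) held 14 Benzonase, 14 Cyanase and 16 DNase I hotspots in 17 regions. Of these, 14 were common, 1 was Benzonase-Cyanase unique and 2 were DNase I unique. The TSS region had a GC content of 66.3%, the highest of all common regions in the windows.
The hotspots there were 2014 bp wide for Benzonase, 1978 bp for Cyanase and 1765 bp for DNase I, and each held the 3 annotated start sites of protein-coding transcripts. Upstream lay 6 further regions within the window, all common, from -18.4 to -1.66 kb. The last region downstream held the TSS of the neighbour 2210021J22Rik, while the neighbour Pkdrej had no TSS in a hotspot.

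Rxra encodes the retinoid X receptor alpha, the shared heterodimer partner of FXR, LXR alpha, PXR, CAR, PPAR alpha and the thyroid hormone receptors. Its window (gene at chr2:27531960-27618477, plus strand) held 24 Benzonase, 22 Cyanase and 18 DNase I hotspots. Of 25 regions, 14 were common, 8 Benzonase-Cyanase unique and 3 DNase I unique. The window was the most GC-rich of the 10, at 53.1%.
The main TSS lay in a region with a GC content of 65.3%. One Benzonase hotspot of 1456 bp and one Cyanase hotspot of 1463 bp crossed it, whereas DNase I had 2 hotspots there, and the one over the TSS was 818 bp wide. Further start sites at chr2:27532721 and chr2:27532782 lay in the Benzonase and Cyanase hotspots and outside the DNase I hotspots. Start sites at chr2:27564812 and chr2:27566103 were in no hotspot. The Benzonase-Cyanase unique regions of Rxra had GC contents of 52.0% to 79.1%, with a median of 56.7%.

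Thrb encodes the thyroid hormone receptor beta, and with 377 kb (chr14:18493474-18870602, plus strand) it is among the longest of the genes. Its window held 28 Benzonase, 29 Cyanase and 35 DNase I hotspots, or 6.71, 6.95 and 8.39 per 100 kb. Of 42 regions, 23 were common, 8 Benzonase-Cyanase unique and 11 DNase I unique. The main TSS region was 2832 bp wide, with 1 Benzonase hotspot of 2712 bp, 1 Cyanase hotspot of 2826 bp and 2 DNase I hotspots, of which the one over the TSS was 1275 bp wide.
No region was found between 264 and 323 kb from the TSS, a gap of 59.1 kb. The start sites of protein-coding transcripts at chr14:18814158 and chr14:18833799 were in no hotspot. The nearest DNase I hotspots lay 2194 and 4388 bp from them, and the nearest Benzonase hotspots 51178 and 31537 bp.

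Esr1 encodes the estrogen receptor alpha. It is the longest of the genes at 394 kb (chr10:5340927-5734948, minus strand). Its window held 14 Benzonase, 14 Cyanase and 19 DNase I hotspots, and Benzonase hotspots covered 2.53% of it. Of 25 regions, 10 were common, 6 Benzonase-Cyanase unique and 9 DNase I unique.
At the main TSS the Benzonase hotspot of 1048 bp and the Cyanase hotspot of 583 bp held the start. The DNase I hotspot of the same region, 447 bp wide, held the most upstream annotated start, which belongs to a transcript not annotated as protein-coding. Beyond 171 kb from the TSS no region was found for 87.5 kb. The 4 regions beyond this gap were all DNase I unique, with GC contents of 42.4%, 41.2%, 38.4% and 41.4%. A Benzonase-Cyanase unique region 101 kb into the gene overlapped an exon and had a GC content of 66.5%.

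The bounds at the start sites were then compared over the genes. This comparison was chosen after the values were seen. Of the 9 receptor genes with the main TSS in a hotspot of all 3 lists, the Benzonase hotspot reached further downstream than the DNase I hotspot in 8 (88.9%), the exception being Nr5a2. The share over all such genes was 88.4%, so the receptor genes were near the background. The median reach downstream was 750 bp for Benzonase, 569 bp for Cyanase and 377 bp for DNase I, against 707, 648 and 341 bp over 10275 genes.
Upstream, Benzonase reached further than DNase I in 7 of 9 (77.8%), against 70.6% of all such genes. Cyanase did so in 4 of 9 (44.4%), against 62.7%. The median reach upstream was 689 bp for Benzonase, 732 bp for Cyanase and 673 bp for DNase I, against 545, 510 and 458 bp over 10275 genes. At Thrb the DNase I hotspot over the TSS reached 673 bp upstream, and a second DNase I hotspot of the same region lay from -2086 to -764 bp.

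**Figure D3:**
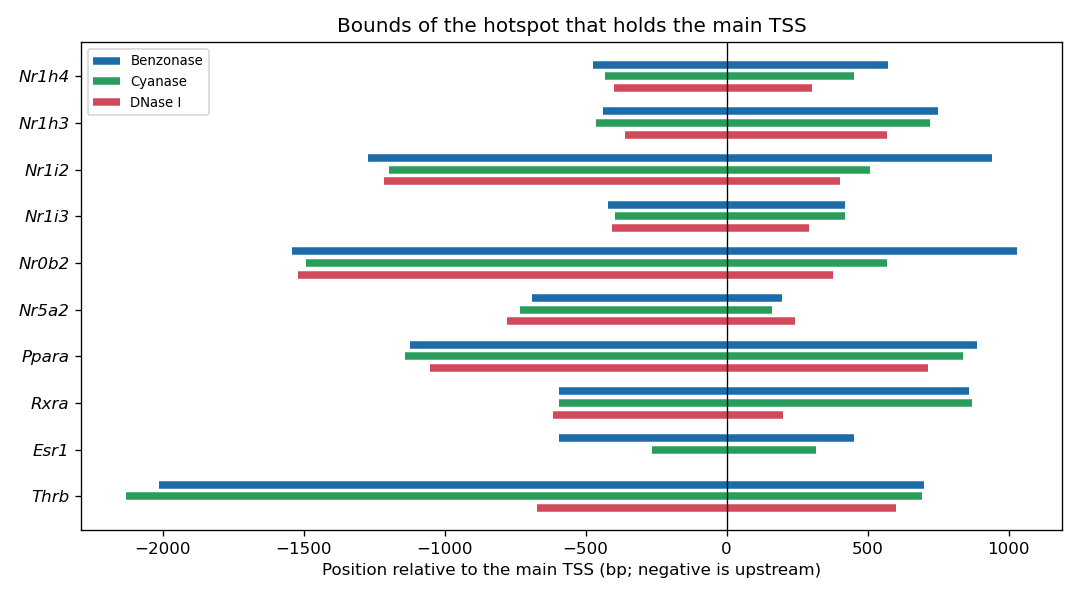
Bounds of the hotspot over the main TSS of each receptor gene in bp from the TSS, with negative values upstream, 1 bar per nuclease. DNase I bars end before Benzonase bars on the downstream side in 8 of 9 genes, and Esr1 has no DNase I bar.

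Base composition differed between the classes. Common regions in the windows had a mean GC content of 48.5% (SD over regions 6.07, n = 120), Benzonase-Cyanase unique regions 53.1% (SD 6.59, n = 34) and DNase I unique regions 43.0% (SD 5.64, n = 36). Over all regions the means were 49.5%, 54.7% and 42.3% in the same order. The order in the windows of the receptor genes was that of the genome, and the values of the classes overlapped.
Within single genes, the classes were apart at Thrb, where the 11 DNase I unique regions ran from 36.9% to 43.9% and the 8 Benzonase-Cyanase unique regions from 44.5% to 58.6%. At Esr1 the 9 DNase I unique regions ran from 33.9% to 46.7% and the 6 Benzonase-Cyanase unique regions from 44.9% to 66.5%. At Rxra the 3 DNase I unique regions, with 50.3% to 55.9%, overlapped the range of the Benzonase-Cyanase unique ones, which began at 52.0%. Of the Benzonase-Cyanase unique regions, 30 of 34 had a higher GC content than the 5 kb on both sides, against 95.6% of this class in the genome. This held for 92 of 120 common regions, against 77.0%, and for 18 of 36 DNase I unique regions, against 44.8%.

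The central 150 bases are shown for the Benzonase-Cyanase unique region of highest GC content and the DNase I unique region of lowest GC content. The stretches have a GC content of 78.7% (Rxra) and 41.3% (Esr1), so the Esr1 stretch lies above the 33.9% of its whole region. The first, found by Benzonase alone, lies at Rxra, 1.16 kb from the TSS (chr2:27533042-27533191, plus strand), and overlaps an exon outside the stretch shown. The second lies in an intron of Esr1, 61.6 kb from the TSS (chr10:5672925-5673074, plus strand). No capitals are used because neither stretch held one of the motifs named above.
Rxra, Benzonase alone: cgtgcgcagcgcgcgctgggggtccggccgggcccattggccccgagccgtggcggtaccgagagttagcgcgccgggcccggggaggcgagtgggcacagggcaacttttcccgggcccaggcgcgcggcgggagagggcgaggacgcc
Esr1, DNase I alone: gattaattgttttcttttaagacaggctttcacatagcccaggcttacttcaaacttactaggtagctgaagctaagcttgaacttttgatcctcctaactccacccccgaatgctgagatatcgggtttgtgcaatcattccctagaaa

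**Figure D4:**
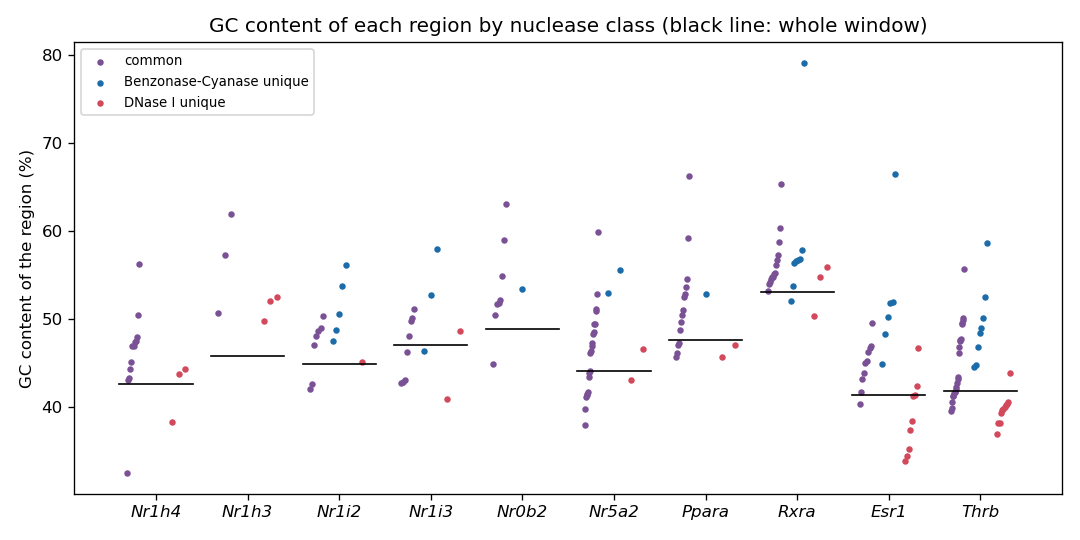
GC content in percent of each of the 190 regions (points), by receptor gene and class, with the GC content of the whole window as a black line. Most DNase I unique points of Esr1 and Thrb lie at or below the line, and the highest point, 79.1%, is a Benzonase-Cyanase unique region of Rxra.

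Hotspot widths were compared in the 105 regions of the windows that held exactly 1 hotspot of each nuclease. The median width was 759 bp for Benzonase (quartiles 645 and 999), 747 bp for Cyanase (617 and 956) and 750 bp for DNase I (651 and 930). Over the 33922 such regions of the genome the medians were 761, 720 and 746 bp. The median widths were thus close between nucleases at the receptor genes. In single regions, Benzonase minus DNase I width ran from -633 to 925 bp (quartiles -60 and 130).
Bounds lay closest between Benzonase and Cyanase, with a median distance of 28 bp between their edges, against 33 bp over such regions of the genome. The median distance was 57 bp between Benzonase and DNase I, against 71 bp, and 52 bp between Cyanase and DNase I, against 70 bp. The Benzonase hotspot was wider than that of DNase I in 57 of 105 regions (genome 52.9%) and than that of Cyanase in 76 of 105 (genome 68.1%).
The difference went with GC content. In the 36 regions of the windows with a GC content of 50% or more, the Benzonase hotspot was wider by a median of 130 bp and wider in 29 regions. In the 69 regions under 50%, the median of Benzonase minus DNase I was -20 bp and Benzonase was the wider in 28. The medians over all such regions of the genome were 177 and -67 bp, with Benzonase the wider in 80.4% and 30.4%.

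**Figure D5:**
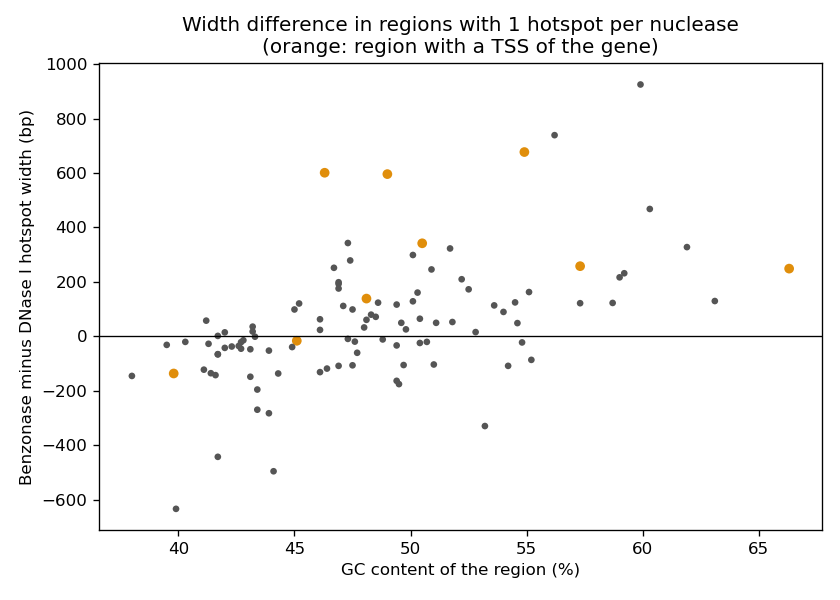
Benzonase minus DNase I hotspot width in bp (vertical axis) against GC content in percent in the 105 regions with 1 hotspot per nuclease, with regions over a TSS in orange. Most points at 50% or more lie above 0, with a median of 130 bp in 36 regions.

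Hotspots found by 1 nuclease alone were narrower. In the windows, the median width was 434 bp for the 10 hotspots of Benzonase alone, 537 bp for the 5 of Cyanase alone and 525 bp for the 36 of DNase I alone. The genome medians were 368, 356 and 549 bp, and the value of Cyanase rests on 5 hotspots. In regions of all 3 nucleases the medians were 772, 756 and 758 bp, against 780, 734 and 750 bp. Base by base, Benzonase and Cyanase hotspots shared 83.9% of the bases covered by either in the windows of the receptor genes, against 73.1% in the genome. Benzonase and DNase I shared 59.2%, against 45.4%, and Cyanase and DNase I 60.4%, against 45.0%. The lowest shares with DNase I were at Esr1, with 43.6% for Benzonase and 43.0% for Cyanase.

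Motifs were searched on both strands, over 300 bp at the middle of a region. The hexamer AGGTCA was in 51 of the 190 regions (26.8%, Wilson interval 21.0 to 33.6), against 26.7% of all regions. Paired hexamers were searched as DR1 (AGGTCANAGGTCA), DR4 (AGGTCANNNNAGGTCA) and IR1 (AGGTCANTGACCT), and the estrogen response element as GGTCANNNTGACC. Exact matches to each of them were in 0 of the 190 regions (Wilson interval up to 1.98%). Of all regions, 0.230% held DR1, DR4 or IR1 and 0.0624% held the estrogen response element. The counts of 0 were thus near the background. With 1 mismatch over both hexamers, 4 regions (2.11%) held DR1, DR4 or IR1, against 2.55% of all regions. These lay at Nr1i3, Nr5a2, Ppara and Thrb.
The HNF4 motif CAAAGTCCA was in 9 regions (4.74%, interval 2.51 to 8.76), against 1.55% of all regions. Of these 9, 5 were common, 4 DNase I unique and 0 Benzonase-Cyanase unique. They made up 4.17%, 11.1% and 0% of the regions of each class in the windows, against genome shares per class of 1.88%, 2.08% and 0.423%. Thrb held 5 of the 9, and without Thrb, a choice made after seeing the data, the count was 4 of 148 (2.70%). FOXA (TGTTTAC) was in 12 regions (6.32%), against 6.60%, the E-box CACGTG in 12 (6.32%), against 5.91%, and Sp1 (GGGCGG) in 22 (11.6%), against 15.8%. HNF1 (GTTAATNATTAAC) was in none, against 0.0296%. A match describes letters and not a bound factor.

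The match to DR1 in the whole regions, outside the central 300 bp, lay in a Benzonase-Cyanase unique intron region of Nr1i2, 21.5 kb from the TSS (chr16:38273671-38273730). It is shown with the 5 HNF4 matches in the central 300 bp of common regions, which were chosen after their values were seen. Whole common regions held 7 HNF4 matches, and the other 2, in the TSS region of Rxra and an intron of Nr5a2, are not shown. These lie in introns of Ppara (chr15:85607450-85607509) and Thrb (chr14:18617134-18617193, chr14:18617991-18618050, chr14:18732731-18732790 and chr14:18750024-18750083). All 6 are from mm9, plus strand, with the match in capitals, and the Thrb matches lie 124, 125, 239 and 257 kb from the TSS by the middle of their regions.
Nr1i2, DR1: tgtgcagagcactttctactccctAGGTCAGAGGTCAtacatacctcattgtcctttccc
Ppara, HNF4: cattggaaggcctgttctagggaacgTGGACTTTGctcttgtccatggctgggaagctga
Thrb at 124 kb, HNF4: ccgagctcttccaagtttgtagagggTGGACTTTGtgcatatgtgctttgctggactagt
Thrb at 125 kb, HNF4: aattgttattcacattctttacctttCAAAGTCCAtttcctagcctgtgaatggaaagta
Thrb at 239 kb, HNF4: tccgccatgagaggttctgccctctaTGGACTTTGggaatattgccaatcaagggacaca
Thrb at 257 kb, HNF4: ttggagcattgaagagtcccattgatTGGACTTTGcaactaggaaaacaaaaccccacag

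The other nuclear receptor genes give a comparison within the family. Of 39 such genes, 26 had a TSS in a hotspot of all 3 nucleases, against 9 of the 10 receptor genes described here and 46.0% of all genes. A TSS lay in a Benzonase hotspot in 34 (all genes 57.4%), a Cyanase hotspot in 32 (55.7%) and a DNase I hotspot in 26 (47.4%), and 5 (Nr1h5, Nr2e1, Nr2e3, Esr2 and Nr5a1) were in none. Their median density was 6.39 Benzonase, 4.92 Cyanase and 4.51 DNase I hotspots per 100 kb.
The gene most like each member was the one with the smallest Euclidean distance in density over the 3 lists. Esr1 was most like Nr3c2 (distance 0.486), Thrb like Pparg (1.09), Nr1h3 like Nr3c1 (1.31), Nr5a2 like Nr4a1 (1.52) and Ppara like Nr4a1 (1.70). Nr1h4 was most like Ppard (2.61), Nr0b2 like Rara (2.70), Rxra like Thra (3.27), Nr1i2 like Nr4a1 (5.96) and Nr1i3 like Nr1d1 (8.14). The distance describes density over 3 lists and carries no statement on shared control.

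Partners and targets of the receptors were read by the same rule. Of 11 coregulator genes, 9 had a TSS in a hotspot of all 3 lists, against 46.0% of all genes, and the exceptions, Ncoa1 and Crebbp, lacked DNase I. Of 29 target genes, 25 had a TSS in hotspots of all 3, against the same 46.0%. This held for 5 of 5 targets of the bile acid pathway, 6 of 6 of the LXR pathway and 3 of 3 of thyroid hormone. For the xenobiotic receptors it held for 5 of 6, with Cyp2c55 found by DNase I alone, and for PPAR alpha for 6 of 9, where Cyp4a10, Cyp4a14 and Fgf21 lacked DNase I.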

How the data were processed

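Per the file headers, the deposited values are positions (start and end) of hotspots that the authors called on pooled reads, in mm9, at an FDR of 0 for each of the 3 lists, with input adjustment and without merging. The authors pooled the 3 digestion levels of Benzonase and of Cyanase before calling. A hotspot thus has no read count or score here, and its bounds depend on the depth of each pool, which the lists do not hold.

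Gene models came from GENCODE M1 (mm9) and sequence from the genome of that build. Lists were compared with Python 3.11.15, numpy 2.4.6, pysam 0.24.0 and samtools 1.23.1; Wilson intervals (95%) used scipy 1.17.1 and figures matplotlib 3.10.9. Regions joined hotspots that overlapped by at least 1 bp. All 10 members were named, with neighbouring genes whose TSS lay in a window, the most similar other receptor gene, the Benzonase-Cyanase unique region of highest and the DNase I unique region of lowest GC content and exact paired motifs. The members and lists were chosen with earlier results of these data known. No p-value was computed. A marker and a neighbouring gene are not reported here, and promoter stretches are shown for 5 of the 10 genes. Alternatives changed the window, the minimum width, the overlap, the TSS rule and the motif search. The code was tested on simulated lists with known answers.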

Additional observations from a re-analysis of the deposited data

How the results depend on the processing

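Alternative settings gave 73 values for 24 results, and 66 of these were within 1.5 times for a count, within the 95% Wilson interval for a share, or within 1 SD over regions for a width or GC content. Counts of hotspots and regions stayed within 1.5 times under each window, width, midpoint, merging and overlap setting run, and Benzonase hotspots ranged from 116 to 179. The share of common regions was 53.8% in place of 63.2% where joining needed 50% of each hotspot to overlap. Searching whole regions in place of the central 300 bp gave 48.4% of regions with the hexamer AGGTCA, 13.2% with FOXA, 20% with Sp1 and 14.2% with the E-box, since more bases were searched. The genome shares given above for these motifs are for the central 300 bp. That for common regions is for joining at an overlap of at least 1 bp. They are no background for the values under these alternatives. Regions with DR1, DR4 or IR1 numbered 1 in whole regions and 4 with 1 mismatch allowed, in place of 0. With a hotspot within 1 kb of a TSS, or with all annotated transcripts, DNase I reached 10 of 10 genes in place of 9, through Esr1. The 47.4% of all genes given above is for a protein-coding TSS inside a DNase I hotspot and is no background for this count. The comparison of bounds at the main TSS and at every TSS was added after seeing the data, as was the HNF4 share without Thrb (2.70% in place of 4.74%).

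No paired analysis was possible because each nuclease has 1 pooled list and no test was made. For the same reason no sample was left out. Without read counts, a missing hotspot cannot be told apart from one below the calling threshold.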

Other observations

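Among the 10 regions of the windows with all 3 nucleases and more than 1 hotspot of at least 1 nuclease, the split fell differently between the lists. At the main start sites of Rxra and Thrb, DNase I had 2 hotspots where Benzonase and Cyanase each had 1. At Nr1i2, a region of 3212 bp held 2 Benzonase, 2 Cyanase and 1 DNase I hotspots, and at Thrb a region of 2595 bp, 185 kb from the TSS, held the same numbers. No share of split regions over the genome is given here, so their number is not read as particular to the receptor genes. The origin of these splits was not tested.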
